A study of Mus musculus with 18 samples.

Results

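The genes described here are 10 rhythmically expressed genes of the mouse liver. Dbp, Tef and Hlf encode the PAR bZIP transcription factors. Nr1d1 and Nr1d2 encode the nuclear receptors REV-ERB alpha and REV-ERB beta. Per1, Per2 and Per3 encode the Period proteins. Ciart (CHRONO) and Bhlhe41 (DEC2) encode further repressors of the clock. The genes were taken by symbol, 10 of the 19057 rows of the expression table, and all 10 passed the filter on low values. Ciart and Bhlhe41 passed it only through groups in which they were high. The 10 genes had been selected on their values in these same livers. Their levels and differences are therefore a description. Counts of the 10 genes past limma's threshold stand only beside the share of all genes past it, and nothing is read from them. The tests that carry a p below are of genes outside the set, in lists also chosen with earlier results of these data known.

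RNA was sequenced from 18 livers of ICR mice aged 10 weeks, in 6 groups of 3 mice. Con mice had the control treatment, and AOS mice had alginate oligosaccharide (AOS), a product of seaweed alginate, at 10 mg/kg. HFD mice had a high-fat diet, and HFD+AOS mice had that diet with AOS at 10 mg/kg. Con-FMT and A10-FMT mice also had the high-fat diet, together with intestinal microbiota from control mice or from mice given AOS at 10 mg/kg (FMT, faecal microbiota transplantation). Per the study's methods, the mice were male, Con and HFD mice had saline, and the transplanted material was intestinal content pooled within a donor group. Each transplanted group therefore stood on 1 donor pool. The mice lived on a light and dark cycle, and the hour at which each liver was taken is not given in the sources used here. Hour of collection and treatment cannot be told apart in these data. In bulk liver, fewer cells of a type and less RNA per cell cannot be told apart either.

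The liver clock is a feedback loop of transcription. BMAL1 (encoded by Arntl) pairs with CLOCK or NPAS2, binds E-boxes and activates the Period, Cryptochrome, Nr1d1, Nr1d2, Ciart and Dbp genes. The Period and Cryptochrome proteins, CHRONO and DEC2 then repress this activation, and the REV-ERBs repress Arntl, Clock, Npas2 and Nfil3 through RORE sites. DBP, TEF and HLF bind D-boxes, where they oppose the repressor NFIL3, and carry the rhythm to enzymes of drug and lipid metabolism.

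The sequences below show where the letters of these binding motifs occur before the RefSeq start of 4 of the genes, because the genes of the set moved together over the livers. Only windows that held a match are shown. Each line gives 250 bases before the RefSeq transcription start (GRCm38.p6), 5′ to 3′ on the gene's own strand. Capitals mark the E-box CACGTG, the D-box TTATGTAA and the RORE core AGGTCA, searched on both strands.
Ciart, minus strand, chr3:95882229-95882478: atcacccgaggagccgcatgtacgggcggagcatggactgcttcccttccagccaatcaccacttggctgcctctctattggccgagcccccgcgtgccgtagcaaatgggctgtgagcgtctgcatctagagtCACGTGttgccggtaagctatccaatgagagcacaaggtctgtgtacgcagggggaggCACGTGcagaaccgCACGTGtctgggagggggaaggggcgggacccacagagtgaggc
Per3, minus strand, chr4:151044666-151044915: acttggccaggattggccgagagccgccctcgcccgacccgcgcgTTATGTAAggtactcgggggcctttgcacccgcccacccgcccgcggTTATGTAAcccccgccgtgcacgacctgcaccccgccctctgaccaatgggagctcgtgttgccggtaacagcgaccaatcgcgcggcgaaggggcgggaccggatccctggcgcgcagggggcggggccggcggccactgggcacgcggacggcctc
Tef, second window, plus strand, chr15:81811164-81811413: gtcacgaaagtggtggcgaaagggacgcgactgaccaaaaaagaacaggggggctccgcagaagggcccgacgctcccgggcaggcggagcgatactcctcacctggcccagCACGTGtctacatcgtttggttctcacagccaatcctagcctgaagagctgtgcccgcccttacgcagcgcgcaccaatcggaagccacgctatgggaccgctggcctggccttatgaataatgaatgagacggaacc
Per1, first window, plus strand, chr11:69098699-69098948: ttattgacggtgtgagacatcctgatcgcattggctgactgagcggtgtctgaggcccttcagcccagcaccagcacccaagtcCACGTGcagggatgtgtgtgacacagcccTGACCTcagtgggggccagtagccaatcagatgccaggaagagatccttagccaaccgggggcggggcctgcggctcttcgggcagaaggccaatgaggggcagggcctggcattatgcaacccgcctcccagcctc

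Ciart held 3 E-boxes in this window, while each window of Tef, the first of Per1 and that of Bhlhe41 (not shown) held 1. The E-box occurred in 6.02% of all 32851 RefSeq windows of this length, and 0.429% held 2 or more. Per3 held 2 D-boxes, a letter string found in 0.819% of all windows and at least 2 times in 0.0183%. A window was available for 9 of the 10 genes, all but Per2, and 4 of the 9 held an E-box. The windows of Dbp and Hlf held none of the motifs searched. Nr1d1 held the variant CACGTT, which occurred in 3.85% of windows. The RORE core, found in 14% of windows, occurred in Nr1d2 and Per1. Among Arntl, Npas2, Clock and Nfil3, also searched, it occurred in Clock and Nfil3 and not in Arntl or Npas2. In the GENCODE M21 annotation (GRCm38), all 10 are protein-coding genes, with Dbp at chr7:45705088-45710203, Tef at chr15:81802421-81826863, Hlf at chr11:90336536-90390895, Nr1d1 at chr11:98767932-98775333 and Nr1d2 at chr14:18204054-18239127. The others are Per1 at chr11:69095217-69109960, Per2 at chr1:91415982-91459324, Per3 at chr4:151003652-151044665, Ciart at chr3:95878503-95882251 and Bhlhe41 at chr6:145858243-145865558. By these bounds the Per1 and Tef windows shown lie inside the genes, before an inner start that RefSeq lists, and that of Ciart overlaps the first bases of the gene. A match describes these letters only and is not evidence of binding.

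The values are RPKM, read numbers divided by transcript length and by library size, so levels can be set side by side between genes. Summed RPKM lay between 692303 and 806937 per liver. In 50 sparsely read genes, the value taken for a single read lay between 0.984 and 1.03 of that in the median liver. These genes were selected for nonzero values close to each other, which limits this range in advance. It therefore does not settle whether depth was equal, and the absolute depth is unknown. All 6 hepatocyte marker genes were present in every liver. The third Con and the third AOS liver stood apart. Con replicate 3 lay between the other Con livers for 98.0% of the 148 genes in which those differed by 1 or more on the log2 scale, and AOS replicate 3 did so for 96.5% of 142 genes. For the 12 livers of the other 4 groups this share was 58.1% to 76.8%. Whether these 2 are libraries of mice of their own could not be settled from the values, and n = 3 for Con and AOS follows the labels. Fitted differences and tests that use Con or AOS are given with and without them where a value or a call moved. A10-FMT livers stood apart in another way. The summed RPKM of 3 adipocyte markers (Adipoq, Plin1 and Cfd) was 27.45 in A10-FMT replicate 1, 1.84 in replicate 2 and 0.08 in replicate 3, and 0.32 or less in each of the other 15 livers. Results of A10-FMT are therefore also given without replicates 1 and 2, an alternative chosen after seeing the data, in which replicate 3 stands alone and is assumed to vary like the other groups.

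By group mean, HFD+AOS and A10-FMT were the highest groups for all 10 genes. Con-FMT lay between these and Con, AOS and HFD for all but Per2, where Con lay above Con-FMT. Single livers of high and low groups overlapped in some genes, among them Nr1d1 and Per2. The ratio of the highest to the lowest group mean was 210.2 for Dbp, 82.8 for Ciart, 23.8 for Nr1d1, 19.7 for Per3 and 17.9 for Bhlhe41. It was 7.98 for Nr1d2, 6.88 for Tef, 4.55 for both Per1 and Per2, and 1.89 for Hlf. The highest group mean was in HFD+AOS for Dbp, Nr1d1, Nr1d2 and Bhlhe41 and in A10-FMT for the other 6 genes. The RPKM of each gene in every liver are plotted by group.

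**Figure D1:**
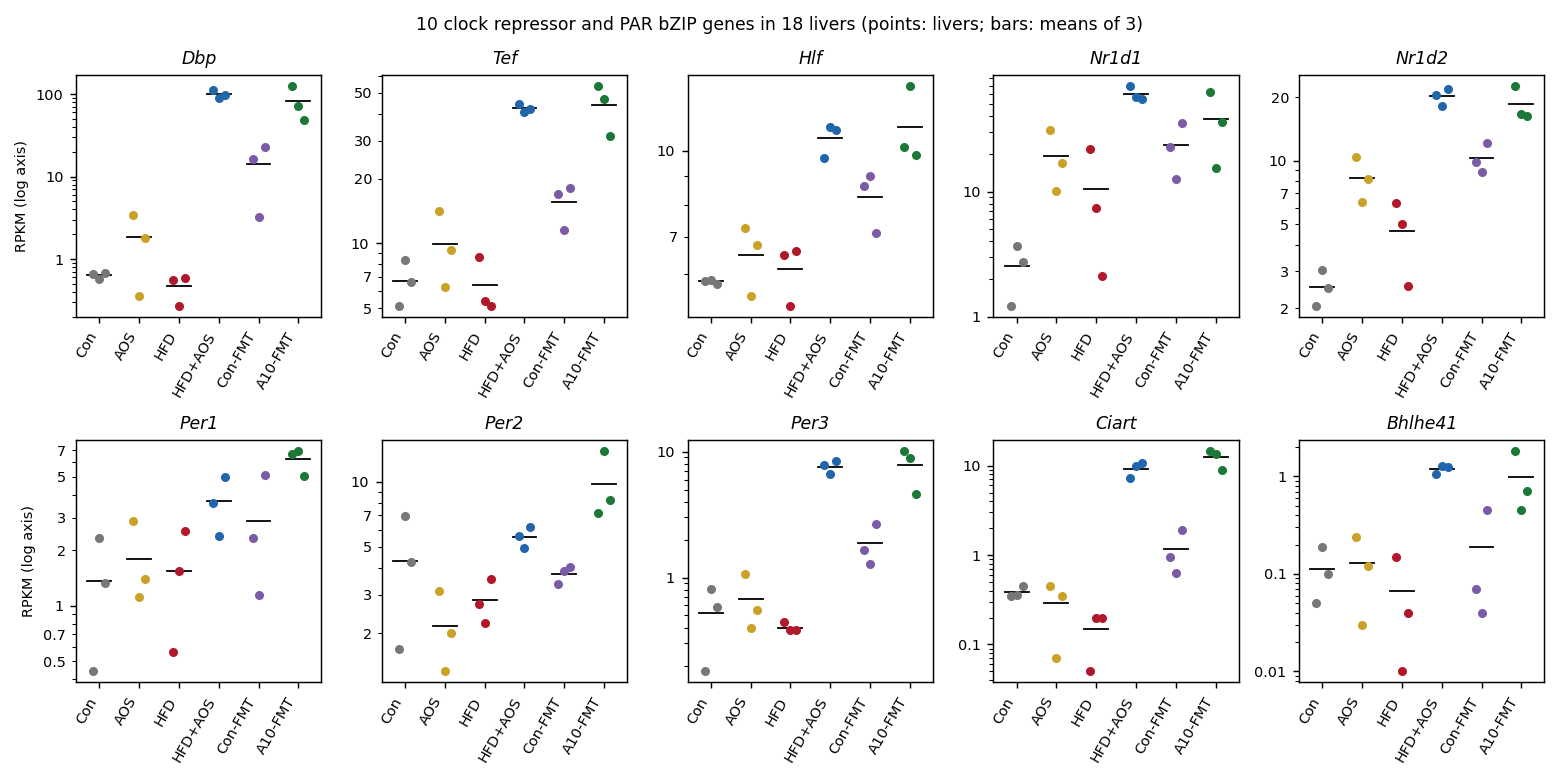
RPKM of the 10 genes in 18 livers, on a log axis of its own for each gene, by group. Points are livers (replicates 1 to 3 from left to right) and bars are means of 3 livers. In Dbp the 6 livers of HFD+AOS and A10-FMT sit between 49.17 and 126.90, and the 9 livers of Con, AOS and HFD between 0.27 and 3.41.

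Dbp, the PAR bZIP factor that drives many rhythmic liver enzymes, had the widest range. In Con its RPKM was 0.66, 0.58 and 0.68, in HFD 0.56, 0.27 and 0.59, and in AOS 3.41, 0.36 and 1.78. In HFD+AOS it was 111.84, 88.90 and 97.76, in A10-FMT 126.90, 70.84 and 49.17, and in Con-FMT 16.54, 3.24 and 22.57. Con-FMT replicate 2 fell within the range of the AOS livers, and the other Con-FMT livers lay above every liver of Con, AOS and HFD and below every liver of HFD+AOS and A10-FMT. The group means were 0.473 ± 0.177 (SD, n = 3) in HFD, 99.5 ± 11.6 in HFD+AOS, 82.3 ± 40.1 in A10-FMT and 14.1 ± 9.89 in Con-FMT. On the scale of log2(RPKM + 1), which understates the change of low genes, the difference from HFD was 6.09 (SE 0.51) in HFD+AOS, 5.72 (SE 0.51) in A10-FMT and 3.04 (SE 0.51) in Con-FMT. Exons of Dbp share 539 of 2993 annotated bases with Sphk2 on the opposite strand, and whether the counting used strand is not given. Sphk2 lay between 10.37 and 25.13 RPKM over the 18 livers, with group means of 15.9 in HFD, 19.2 in HFD+AOS and 15.9 in A10-FMT.

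Tef, a close relative of Dbp, also had its high values in HFD+AOS and A10-FMT, from a higher base level. Its RPKM was 5.14, 8.39 and 6.60 in Con, 14.21, 6.30 and 9.30 in AOS and 8.68, 5.42 and 5.12 in HFD. It was 44.42, 40.54 and 42.03 in HFD+AOS, 54.01, 46.76 and 31.50 in A10-FMT, and 16.98, 11.48 and 18.05 in Con-FMT. HFD+AOS and A10-FMT overlapped each other and no other group, and Con-FMT overlapped AOS. The fitted difference from HFD was 2.58 (SE 0.26) in HFD+AOS, 2.60 (SE 0.26) in A10-FMT and 1.16 (SE 0.26) in Con-FMT. An antisense transcript, Gm17597, shares 193 of the 7867 exon bases of Tef and had no row in the table.

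Hlf, the third member of the family, had the smallest range of the 10 genes. It was 5.84, 5.87 and 5.77 RPKM in Con, 7.28, 5.49 and 6.76 in AOS and 6.5, 5.26 and 6.60 in HFD. It was 9.69, 11.03 and 10.90 in HFD+AOS, 10.17, 13.10 and 9.82 in A10-FMT, and 8.64, 9.0 and 7.11 in Con-FMT. Each of the 6 livers of HFD+AOS and A10-FMT lay above each of the other 12. The difference from HFD was 0.70 (SE 0.12) in HFD+AOS and 0.75 (SE 0.12) in A10-FMT. All PAR bZIP genes had their highest group means in HFD+AOS and A10-FMT and the next in Con-FMT, and their sizes differed, with differences between A10-FMT and HFD of 5.72, 2.60 and 0.75 for Dbp, Tef and Hlf.

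Nr1d1, the receptor that represses Arntl, varied widely within groups. Its RPKM was 1.22, 3.68 and 2.72 in Con, 30.70, 10.03 and 16.86 in AOS and 21.72, 7.35 and 2.12 in HFD. It was 70.07, 56.82 and 54.37 in HFD+AOS, 62.50, 15.30 and 35.88 in A10-FMT, and 22.79, 12.69 and 35.17 in Con-FMT. Neighbouring groups in the order of the means overlapped throughout, and A10-FMT replicate 2 lay below HFD replicate 1. All AOS livers lay above all Con livers, with means of 19.2 ± 10.5 and 2.54 ± 1.24 (SD, n = 3). Relative to HFD, the difference was 2.86 (SE 0.62) in HFD+AOS and 2.00 (SE 0.62) in A10-FMT, where the livers overlapped. Exons of Nr1d1 share 263 of 3077 bases with Thra on the opposite strand, and Thra lay between 3.02 and 6.81 RPKM in all livers.

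Nr1d2, which shares these targets, followed Nr1d1 with less spread. It was 2.05, 3.03 and 2.49 RPKM in Con, 10.41, 6.39 and 8.16 in AOS and 6.32, 4.99 and 2.55 in HFD. It was 20.40, 18.14 and 21.88 in HFD+AOS, 22.67, 16.71 and 16.22 in A10-FMT, and 9.87, 8.81 and 12.12 in Con-FMT. Here HFD+AOS and A10-FMT overlapped each other and no other group, and the AOS livers lay above all Con and HFD livers. Nr1d2 differed from HFD by 1.97 (SE 0.22) in HFD+AOS, 1.84 (SE 0.22) in A10-FMT and 1.06 (SE 0.22) in Con-FMT. With group means removed, Nr1d1 and Nr1d2 had the closest relation of all 45 pairs of the 10 genes over the 18 livers (Pearson's r = 0.908, given as a description).

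The Period genes differed among themselves. Per3 was 0.18, 0.81 and 0.58 RPKM in Con, 1.06, 0.40 and 0.55 in AOS and 0.44, 0.38 and 0.38 in HFD. It was 7.77, 6.60 and 8.47 in HFD+AOS, 10.14, 8.86 and 4.59 in A10-FMT, and 1.67, 1.29 and 2.64 in Con-FMT. In Per3 the Con-FMT livers were separate from all the others, above Con, AOS and HFD and below HFD+AOS and A10-FMT. Per3 differed from HFD by 2.62 (SE 0.23) in HFD+AOS, 2.60 (SE 0.23) in A10-FMT and 1.01 (SE 0.23) in Con-FMT.

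Per1, which is also an early target of hormone and cyclic AMP signals, was spread widely within groups. It was 0.44, 2.34 and 1.32 RPKM in Con, 2.88, 1.11 and 1.40 in AOS and 0.56, 1.54 and 2.53 in HFD. It was 3.62, 2.40 and 5.02 in HFD+AOS, 6.66, 6.93 and 5.08 in A10-FMT, and 2.34, 1.14 and 5.13 in Con-FMT. The HFD+AOS livers overlapped the HFD livers (difference 0.92, SE 0.39), and the A10-FMT livers did not (difference 1.57, SE 0.39).

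Per2, the Period gene that also answers temperature and feeding cues, departed from the order of the others. It was 1.68, 6.92 and 4.27 RPKM in Con, 3.12, 1.33 and 1.99 in AOS and 2.71, 2.22 and 3.56 in HFD. It was 5.62, 4.92 and 6.21 in HFD+AOS, 7.15, 13.90 and 8.23 in A10-FMT, and 3.37, 3.88 and 4.02 in Con-FMT. The Con mean of 4.29 RPKM lay above the Con-FMT mean of 3.76, and the lowest group mean was that of AOS, 2.15. A10-FMT livers lay above every other liver, and HFD+AOS livers overlapped Con. The difference from HFD was 0.79 (SE 0.31) in HFD+AOS and 1.45 (SE 0.31) in A10-FMT.

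Ciart, whose product binds BMAL1 and represses it, was among the lowest of the 10 genes in Con, AOS and HFD. It was 0.35, 0.36 and 0.45 RPKM in Con, 0.45, 0.07 and 0.35 in AOS and 0.05, 0.20 and 0.20 in HFD. It was 7.21, 9.82 and 10.68 in HFD+AOS, 14.63, 13.66 and 8.99 in A10-FMT, and 0.96, 0.63 and 1.90 in Con-FMT. Ciart reached 1 RPKM only in HFD+AOS, A10-FMT and Con-FMT replicate 3, and passed the filter through these livers. As in Per3, Con-FMT was separate from both the lower and the higher groups, and all HFD livers lay below all Con livers. Ciart differed from HFD by 3.14 (SE 0.20) in HFD+AOS, 3.52 (SE 0.20) in A10-FMT and 0.87 (SE 0.20) in Con-FMT.

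Bhlhe41, which competes for E-boxes, was the lowest of the set and lay near the resolution of the table, which is rounded to steps of 0.01. It was 0.05, 0.19 and 0.10 RPKM in Con, 0.24, 0.03 and 0.12 in AOS and 0.15, 0.01 and 0.04 in HFD. It was 1.06, 1.29 and 1.24 in HFD+AOS, 1.83, 0.45 and 0.71 in A10-FMT, and 0.07, 0.04 and 0.45 in Con-FMT. Bhlhe41 reached 1 RPKM only in HFD+AOS and A10-FMT replicate 1, and passed the filter through these livers. HFD+AOS livers lay above all livers of Con, AOS, HFD and Con-FMT, and the lowest A10-FMT liver equalled the highest Con-FMT liver. Relative to HFD, Bhlhe41 differed by 1.04 (SE 0.19) in HFD+AOS and 0.85 (SE 0.19) in A10-FMT. Exons of Bhlhe41 share 1280 of 6720 bases with an annotated transcript on the opposite strand, Gm43909, which had no row in the table.

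On one scale per length, the order of the genes changed between groups. In Con the highest mean RPKM of the set was that of Tef, 6.71, followed by Hlf at 5.83 and Per2 at 4.29, and Dbp was at 0.64. In HFD+AOS the highest was Dbp at 99.5, followed by Nr1d1 at 60.4 and Tef at 42.3, with Per1 at 3.68 and Bhlhe41 at 1.20.

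The comparison of A10-FMT with HFD asked what microbiota of AOS-treated donors changed on the high-fat diet. All 10 genes were higher in A10-FMT, 9 of them with no overlap of livers (all but Nr1d1), at a median difference of 1.92. Over the 10507 genes tested the median difference was -0.03. Adjusted p was under 0.05 for 9 of the 10, beside 6.6% of all genes, and 23.4% of all genes had livers that did not overlap. In HFD+AOS against HFD all 10 were higher, 9 without overlap (all but Per1), at a median of 2.27, beside 8.75% of all genes called, among which were 8 of the 10, and 27.2% without overlap. Since the genes were selected on these values, nothing is read from these counts. With A10-FMT replicate 3 alone, all 10 differences from HFD stayed positive, at a median of 1.84, with Dbp at 5.10 (SE 0.70) and Ciart at 3.12 (SE 0.26). Both comparisons use the same HFD livers, as does Con-FMT against HFD, so the values stand side by side only.

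**Figure D2:**
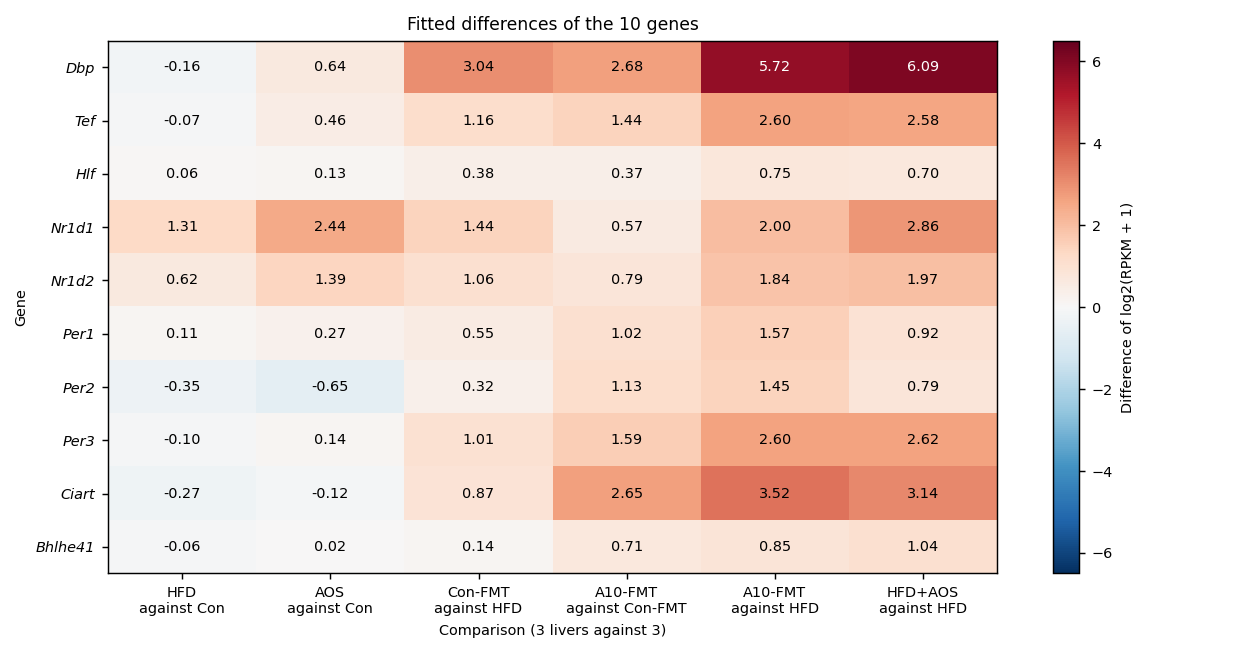
Fitted differences of log2(RPKM + 1) for the 10 genes (rows) in 6 comparisons of 3 livers with 3 (columns), red where the group named first was higher. The columns of A10-FMT and HFD+AOS against HFD hold positive values in all 10 rows, up to 6.09 for Dbp, and the column of HFD against Con holds values from -0.35 to 1.31.

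The comparison of Con-FMT with HFD asked what microbiota from untreated donors changed on the same diet. All 10 genes had a higher mean in Con-FMT, 6 of them without overlap, with a median difference of 0.94. None was called, beside 0.00952% of all genes called and 10.1% without overlap. Dbp had the largest difference, 3.04, followed by Nr1d1 with 1.44 and Tef with 1.16, and Bhlhe41 the smallest, 0.14, which was -0.01 without Con-FMT replicate 3. Within Con-FMT, replicate 3 was the highest and replicate 2 the lowest liver for Dbp, Tef, Nr1d1, Nr1d2, Per1, Per3, Ciart and Bhlhe41. In A10-FMT against Con-FMT all 10 were higher, 7 without overlap, at a median of 1.08. The largest differences were those of Dbp (2.68, SE 0.51), Ciart (2.65, SE 0.20), Per3 (1.59, SE 0.23) and Tef (1.44, SE 0.26). These 4 were called, beside 1.68% of all genes called and 18.3% without overlap, and nothing is read from the count. It was 2 without A10-FMT replicate 1, beside 66 of all 10507 genes, and 1 in the compared groups alone, beside 4 of all genes. With A10-FMT replicate 3 alone the median was 0.87 and all 10 differences stayed positive. Nr1d1 differed by 0.57 (SE 0.62) between the transplanted groups, less than its spread. The values by comparison are drawn as a colour map.

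The comparison of HFD with Con asked what the diet alone changed. The 10 genes did not share a direction, with 4 higher and 6 lower in HFD and a median of -0.07. The signs of Tef, Per1, Per2 and Per3 turned with single livers left out (HFD replicate 2 or 3 or Con replicate 1 or 2). None was called, beside 0.381% of all genes called and 18.5% without overlap. Only Ciart had livers without overlap, and it was lower in HFD, with a difference of -0.27 (SE 0.20) on this scale. Nr1d1 was higher by 1.31 (SE 0.62) with overlapping livers, and Nr1d2 by 0.62 (SE 0.22). Without the third Con and AOS livers these differences were -0.24, 1.38 and 0.62.

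AOS on the control treatment was compared with Con. Nr1d1 and Nr1d2 were higher in AOS with no overlap, by 2.44 (SE 0.62) and 1.39 (SE 0.22), and by 2.54 and 1.39 without the third livers. The other 8 overlapped, with differences from -0.65 for Per2 to 0.64 for Dbp, and the signs of Per1, Per3, Ciart and Bhlhe41 turned with a liver left out (AOS replicate 1 or 2 or Con replicate 1). Nr1d2 was the single gene of the set that was called, beside 0.133% of all genes. The 2 of 10 genes without overlap stand beside 24.7% of all genes, and nothing is read from these counts. Without the third Con and AOS livers no gene of the table was called by limma, although 920 had an unadjusted p under 0.05.

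The effect of AOS was then set against the diet, as the difference between HFD+AOS against HFD and AOS against Con. With all livers it was positive for the 10 genes, at a median of 1.24 (1.20 without the third Con and AOS livers), from 0.42 (SE 0.87) for Nr1d1 and 0.58 (SE 0.31) for Nr1d2 to 5.45 (SE 0.72) for Dbp. The value of Nr1d1 turned to -0.30 without HFD replicate 3. Of the 10, 4 were called, beside 0.504% of all genes, and nothing is read from the count. The REV-ERB genes had positive AOS differences on both diets, and Dbp, Tef, Per3 and Ciart had differences of 2.58 to 6.09 on the high-fat diet and of -0.12 to 0.64 on the control treatment.

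The ratio of Per2 to Nr1d1 within each liver shows how far the genes departed from moving as 1 block. It was 1.38, 1.88 and 1.57 in Con and 0.102, 0.133 and 0.118 in AOS. It was 0.125, 0.302 and 1.68 in HFD, 0.0802, 0.0866 and 0.114 in HFD+AOS, 0.148, 0.306 and 0.114 in Con-FMT and 0.114, 0.908 and 0.229 in A10-FMT. Con and AOS livers were more than 10 times apart and did not overlap, while HFD livers covered nearly the range from AOS to Con. Across the 18 livers the correlations of the 45 gene pairs ran from 0.368 (Nr1d1 with Per2) to 0.984 (Tef with Per3), with a median of 0.806, and from 0.412 to 0.985 without the third Con and AOS livers. With group means removed they ran from -0.294 (Hlf with Bhlhe41) to 0.908, with a median of 0.50 and 40 of 45 above 0. These are descriptions over libraries that share groups and whose depth is unknown.

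**Figure D3:**
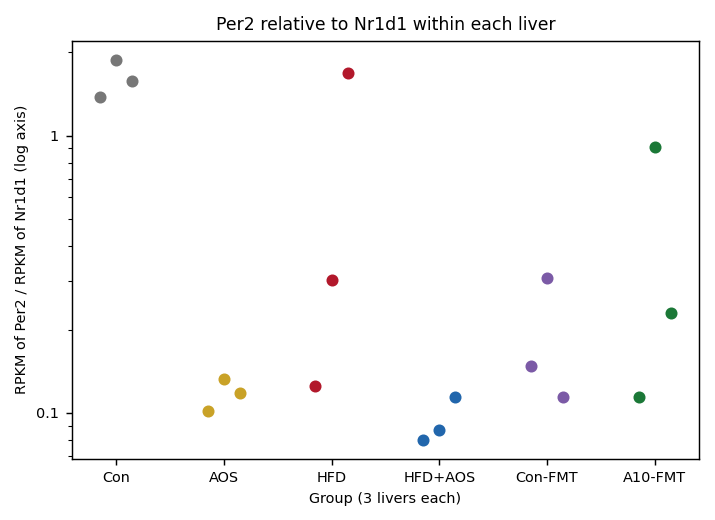
RPKM of Per2 divided by RPKM of Nr1d1 in each of 18 livers, by group, on a log axis, with points in the order of replicates. Con livers lie at 1.38 to 1.88 and AOS livers at 0.102 to 0.133, and HFD livers run from 0.125 to 1.68.

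The activating side of the loop was examined in 17 other clock genes, of which 14 passed the filter on low values (Arntl2 and Timeless did not, and Rorb was listed at 0 in all livers). Of the 14, 7 passed the test in HFD+AOS against HFD (limma, Benjamini-Hochberg adjusted p under 0.05 over 10507 genes), 5 lower and 2 higher, beside 8.75% of all genes. The same 7 passed it in A10-FMT against HFD in the same directions, beside 6.6% of all genes. With A10-FMT replicate 3 alone, 3 passed against HFD: Arntl (-2.07, adjusted p = 0.00109), Npas2 (-1.54, adjusted p = 0.00553) and Nfil3 (-1.47, adjusted p = 0.0109). The median over the 14 was -0.10 and -0.11, beside -0.01 and -0.03 over all genes. The list was chosen with earlier results of these data known, and it holds genes of opposite phase.

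Arntl, which encodes the activator BMAL1 and is a REV-ERB target, was the strongest of them. It was 10.11, 12.90 and 12.15 RPKM in Con, 11.16, 12.72 and 11.81 in AOS and 12.11, 14.64 and 13.21 in HFD. It was 1.18, 1.23 and 1.32 in HFD+AOS, 0.79, 0.69 and 2.41 in A10-FMT, and 8.02, 12.97 and 6.94 in Con-FMT. The livers with high Dbp were those with low Arntl. Arntl fell by 2.67 (SE 0.22, adjusted p = 6.38e-06) in HFD+AOS and fell by 2.71 (SE 0.22, adjusted p = 6.57e-06) in A10-FMT, each against HFD.

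Npas2, the partner of BMAL1 beside CLOCK, fell by 1.74 (SE 0.15, adjusted p = 8.29e-06) in HFD+AOS and fell by 1.76 (SE 0.15, adjusted p = 9.13e-06) in A10-FMT. Its RPKM was 2.64, 2.65 and 2.95 in HFD, 0.11, 0.06 and 0.19 in HFD+AOS, 0.02, 0.03 and 0.29 in A10-FMT, and 1.40, 1.83 and 0.67 in Con-FMT. Nfil3, the repressor at D-boxes, fell from a mean of 28.5 ± 1.54 RPKM in HFD to 8.29 ± 1.34 in HFD+AOS and 9.32 ± 0.482 in A10-FMT (SD, n = 3 each; limma adjusted p = 1.25e-05 and 2.75e-05). Clock fell by 1.09 (adjusted p = 0.000227) and fell by 1.07 (adjusted p = 0.000278). The calls of these 4 genes against HFD held under each of the 12 alternatives tried for each comparison. That of Clock was lost with A10-FMT replicate 3 alone (-0.73, adjusted p = 0.0856).

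The Cryptochrome genes, whose products repress CLOCK and BMAL1 together with the Period proteins, moved in opposite directions. Cry1 fell by 1.71 in HFD+AOS (SE 0.29, adjusted p = 0.00283) and fell by 1.16 in A10-FMT (SE 0.29, adjusted p = 0.0265), and Cry2 rose by 0.97 (adjusted p = 0.00222) and 0.78 (adjusted p = 0.00922). Bhlhe40 (DEC1), the paralogue of Bhlhe41, rose by 1.01 (adjusted p = 0.0297) and 1.08 (adjusted p = 0.0249). In A10-FMT, the calls of Cry1 and Bhlhe40 each held under 6 of 12 alternatives, with adjusted p of 0.0187 to 0.122 and 0.00645 to 0.09. Both were lost without HFD replicate 2, HFD replicate 3 or A10-FMT replicate 1, and that of Bhlhe40 also without A10-FMT replicate 2. The Cry2 call held under 10 of 12, with adjusted p up to 0.114, and was lost without A10-FMT replicate 1. None of the calls of Cry1, Cry2 and Bhlhe40 in A10-FMT remained with replicate 3 alone (adjusted p = 0.434, 0.6 and 0.562). In HFD+AOS the Bhlhe40 call held under 5 of 12, with adjusted p up to 0.0988, and was lost without HFD replicate 2 or 3 or any 1 of the HFD+AOS livers.

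**Figure D4:**
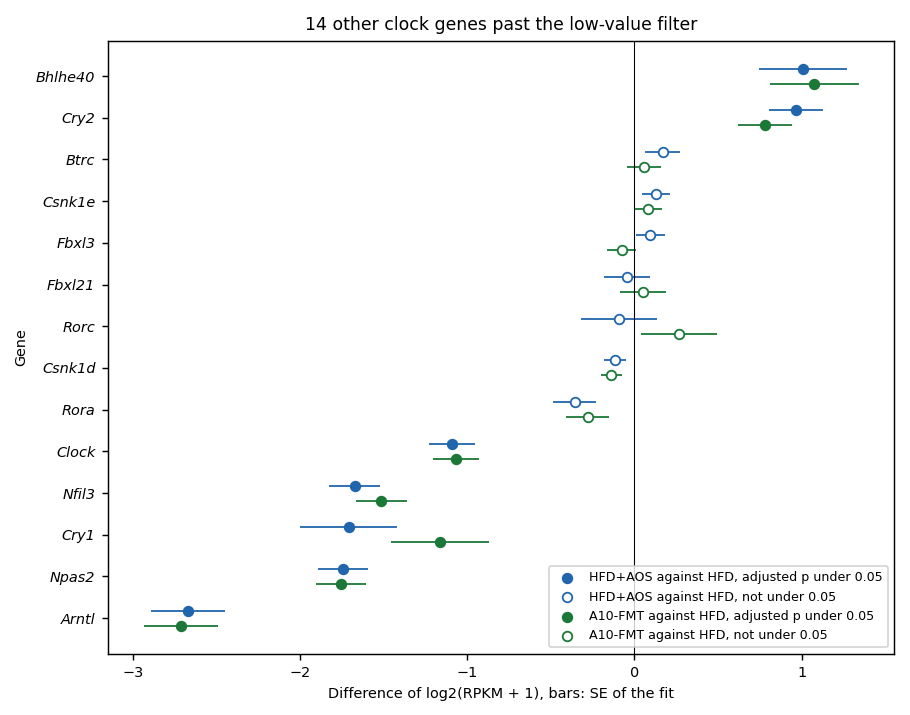
Fitted differences of log2(RPKM + 1) from HFD for 14 other clock genes in HFD+AOS (blue) and A10-FMT (green), with bars for the SE. Filled points had an adjusted p under 0.05. Arntl, Npas2, Cry1, Nfil3 and Clock lie at -1.07 or lower and Cry2 and Bhlhe40 at 0.78 or higher in both comparisons.

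Against Con-FMT, A10-FMT livers had lower Arntl (-2.20, SE 0.22, adjusted p = 9.37e-05), Nfil3 (-1.03, adjusted p = 0.00246), Npas2 (-1.02, adjusted p = 0.0024) and Clock (-0.91, adjusted p = 0.00247). These were the 4 of 14 that passed the test. All 4 calls were lost when the fit was limited to the livers of the groups compared, with adjusted p of 0.105 to 0.186. Of the 4, Arntl passed with A10-FMT replicate 3 alone (-1.55, adjusted p = 0.0215). In Con-FMT against HFD, none of the 14 passed, with Npas2 at -0.74 (adjusted p = 0.331) and Arntl at -0.51. None passed in HFD against Con or in AOS against Con.

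The effect of AOS on these genes differed between the diets. Arntl, Npas2, Nfil3 and Clock passed the test of this difference, with values of -2.70 (SE 0.31, adjusted p = 0.000698), -1.81 (SE 0.21, adjusted p = 0.000698), -1.68 (SE 0.21, adjusted p = 0.00134) and -1.16 (SE 0.19, adjusted p = 0.00905). The other 10 of the 14 did not pass. Without the third Con and AOS livers, Arntl, Npas2 and Nfil3 stayed called, and Clock did not (adjusted p = 0.0966). Over 18 alternatives the adjusted p of the 4 genes had an upper end of 0.0171 for Arntl, 0.021 for Npas2, 0.0231 for Nfil3 and 0.0966 for Clock.

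A summary of both sides in each liver is the mean z-score over the 10 genes against that over Arntl, Clock, Npas2 and Nfil3. For the 10 genes it lay between 1.01 and 1.21 in HFD+AOS and between 0.92 and 1.44 in A10-FMT. It lay between -0.31 and 0.30 in Con-FMT and between -1.24 and -0.15 in the 9 livers of Con, AOS and HFD. The ratio of Dbp to Arntl spanned 0.0184 in HFD replicate 2 to 161.0 in A10-FMT replicate 1, and within A10-FMT it was lowest, 20.4, in replicate 3. Both sets of genes were chosen with results of these livers known, so the separation of groups by these scores is a description. Cry1, which was also lower in HFD+AOS and A10-FMT than in HFD, is not part of the second score.

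**Figure D5:**
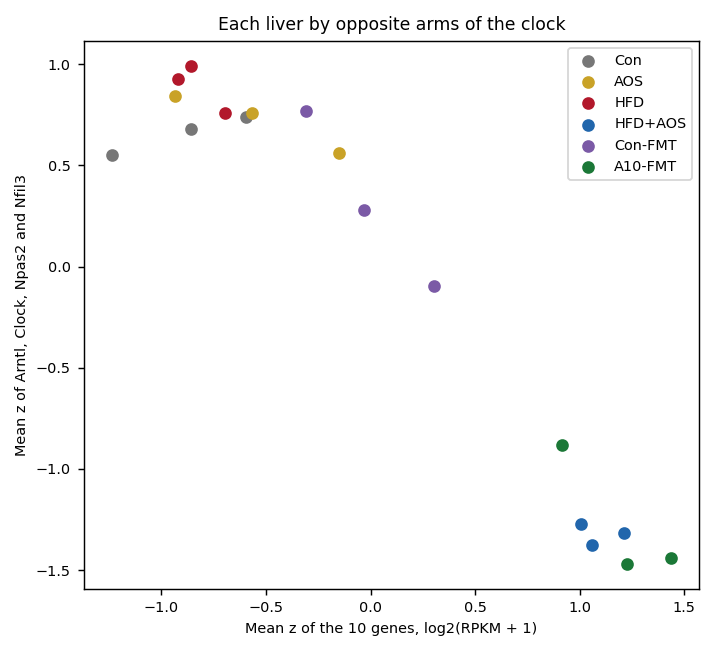
Mean z-score of log2(RPKM + 1) of the 10 genes (horizontal) and of Arntl, Clock, Npas2 and Nfil3 (vertical), each point a liver, coloured by group. HFD+AOS and A10-FMT livers lie at the lower right, beyond 0.92 on the horizontal axis, and Con-FMT livers lie between -0.31 and 0.30. Both sets of genes were chosen with results of these livers known.

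Genes of the table most like the set were Gys2 (Pearson's r = 0.966 over 18 livers with the mean z-score), which makes glycogen in the liver, and Dgat2 (0.957), the final enzyme of triglyceride synthesis. Il15ra, Slc5a6 and Slc38a3 followed with 0.937 each, then Oaf (0.935), Sord (0.933), Wipf3 (0.93), Narf (0.93) and Cry2 (0.929). The most opposite were Asap2 (-0.976), Npas2 (-0.96), Lrfn3 (-0.957), Chka (-0.956) and Nfil3 (-0.955), followed by St3gal1 (-0.954), Pnrc1 (-0.949), Arntl (-0.948), Rnf144b (-0.943) and Dtx4 (-0.942). These are descriptions with no test. Without the third Con and AOS livers, 8 of the 10 most alike and all 10 most opposite were the same genes. By Spearman's correlation 3 of the 10 most alike and 4 of the 10 most opposite were. With group means removed, 0 of the 10 most alike and 2 of the 10 most opposite were.

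Downstream of the PAR bZIP factors, 12 target genes were tested. In A10-FMT against HFD 4 rose and 0 fell, beside 6.6% of all genes, and in HFD+AOS against HFD 3 rose and 0 fell, beside 8.75%. The first count was 1 without A10-FMT replicate 1 or 2, 2 without HFD replicate 2 or 3, and 0 in the compared groups alone or with A10-FMT replicate 3 alone. The medians were 0.76 and 0.80, and 8 of 12 had a positive difference in each. Upp2, a liver uridine phosphorylase, was 30.19, 52.33 and 46.92 RPKM in HFD, 198.90, 200.51 and 211.54 in HFD+AOS and 301.36, 208.40 and 109.01 in A10-FMT. It rose by 2.25 (SE 0.34, adjusted p = 0.000995) and by 2.15 (SE 0.34, adjusted p = 0.00156) against HFD, and A10-FMT livers were higher than Con-FMT livers by 2.16 (adjusted p = 0.00313). Both A10-FMT calls of Upp2 were lost in the compared groups alone (adjusted p = 0.0529 and 0.146) and with A10-FMT replicate 3 alone, where it was 1.35 higher than in HFD (adjusted p = 0.252). Por, which supplies electrons to the cytochromes P450, rose by 1.35 in the A10-FMT livers (adjusted p = 0.0134), a call lost without A10-FMT replicate 1 or 2 (adjusted p up to 0.171 over 12 alternatives). Ppara, the nuclear receptor of fatty acid oxidation, rose by 0.87 in HFD+AOS (adjusted p = 0.002) and 0.59 in A10-FMT (adjusted p = 0.0223). The latter held under 7 of 12 alternatives and was lost without HFD replicate 2 or 3 or A10-FMT replicate 1 or 2 (adjusted p up to 0.104). Acot3, an acyl-CoA thioesterase and 1 of the 3 counted in HFD+AOS, rose there by 1.58 (adjusted p = 0.0485). Outside HFD+AOS (7.34, 1.07 and 4.60 RPKM) it reached 1 RPKM only in AOS replicate 1 and A10-FMT replicate 2. Acot3 thus passed the filter only through the group in which it was high, and nothing is read from its call. The call held under 2 of 12 alternatives, with adjusted p up to 0.203. It was lost without the filter, without any 1 of the HFD livers or without HFD+AOS replicate 1 or 3. No target passed the test in Con-FMT against HFD, HFD against Con or AOS against Con.

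Of 11 target genes of the REV-ERBs, 9 were tested. In A10-FMT against HFD 3 fell and 0 rose, and in HFD+AOS against HFD 3 fell and 1 rose, at medians of -0.59 and -0.18, beside 6.6% and 8.75% of all genes. The count in A10-FMT was 1 in the compared groups alone and 1 with replicate 3 alone, where the median was 0.05. That in HFD+AOS was 1 without HFD replicate 3 or HFD+AOS replicate 1, and 2 without HFD replicate 2 or HFD+AOS replicate 2 or 3. Elovl3, an elongase of very long fatty acids, was 250.25, 174.28 and 183.36 RPKM in HFD, 25.24, 26.48 and 45.27 in HFD+AOS, 20.96, 16.83 and 29.07 in A10-FMT, and 129.89, 114.18 and 220.82 in Con-FMT. It fell by 2.64 (SE 0.29, adjusted p = 8.7e-05) and fell by 3.14 (SE 0.29, adjusted p = 1.54e-05) against HFD, and fell by 2.72 in A10-FMT against Con-FMT (adjusted p = 0.000152), under all 12 alternatives each. With A10-FMT replicate 3 alone it fell by 2.74 against HFD (adjusted p = 0.00958), and the call against Con-FMT was lost (adjusted p = 0.0601). Insig2, which holds back sterol synthesis, fell by 1.54 in A10-FMT (adjusted p = 0.0106), where replicate 3 was at 115.18 RPKM beside 35.74 and 30.65 in the others. This call was lost without A10-FMT replicate 1 or 2, with adjusted p up to 0.16, and with replicate 3 alone the difference was -0.36 (adjusted p = 0.673). Fgf21, a fasting hormone of the liver, fell by 1.25 from HFD to A10-FMT (adjusted p = 0.00809) and fell by 1.47 against Con-FMT (adjusted p = 0.00551). Both calls were lost when the fit was limited to the groups compared (adjusted p = 0.0635 and 0.105) or to A10-FMT replicate 3 (adjusted p = 0.361 and 0.482). The single REV-ERB target called in HFD against Con was also Fgf21, which was higher in HFD by 1.44 (adjusted p = 0.0283). That call held under 5 of 12 alternatives, with adjusted p up to 0.205, and was lost without replicate 1 or 3 of either group. Without the third Con and AOS livers its adjusted p was 0.205. In HFD+AOS, G6pc of glucose output fell by 1.58 (adjusted p = 0.0137) and the fatty acid carrier Cd36 rose by 0.68 (adjusted p = 0.0329). The G6pc call was lost without HFD replicate 3 or HFD+AOS replicate 1 or 2 (adjusted p up to 0.0967), and that of Cd36 without HFD replicate 2 or 3 or HFD+AOS replicate 1 or 3 (adjusted p up to 0.154).

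Among 19 tested genes of other rhythmic liver outputs, 7 rose and 4 fell in A10-FMT against HFD, beside 6.6% of all genes. In HFD+AOS against HFD 6 rose and 5 fell, beside 8.75% of all genes. The count called in A10-FMT was 5 in the compared groups alone, where 78 of all genes were called. With A10-FMT replicate 3 alone, the differences from HFD were 1.83 for Usp2, 1.33 for Wee1 and -2.17 for Cdkn1a. Usp2, a rhythmic deubiquitinase, rose by 2.50 (SE 0.23, adjusted p = 1.54e-05) in A10-FMT and by 1.88 (SE 0.23, adjusted p = 0.000191) in HFD+AOS. Wee1, a mitotic kinase under E-box control, rose by 1.68 in each (SE 0.17, adjusted p = 3.12e-05 and 3.54e-05). Cdkn1a, the cell cycle inhibitor p21, fell by 3.00 (SE 0.29, adjusted p = 1.95e-05) and fell by 3.06 (SE 0.29, adjusted p = 1.62e-05). Cdkn1a RPKM was 11.99, 11.81 and 16.47 in HFD, 0.91, 0.51 and 0.73 in HFD+AOS and 0.41, 0.27 and 2.18 in A10-FMT.

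Genes of the cues that act on Per1 and Per2, namely heat shock, cold-inducible and glucocorticoid-responsive genes, were a last list of 14. In A10-FMT against HFD 1 rose, the cold-inducible Rbm3 (0.70, adjusted p = 0.0176), and 0 fell, a share near the 6.6% of all genes. It was lost with A10-FMT replicate 3 alone (adjusted p = 0.603). In HFD+AOS against HFD 2 rose and 4 fell, beside 8.75% of all genes, among them Cirbp, also cold-inducible, with a rise of 0.88 (adjusted p = 0.00562), and the heat shock gene Hsph1, which fell by 1.41 (adjusted p = 0.0142). The Hsph1 call was lost without HFD replicate 3 or HFD+AOS replicate 1 or 2 (adjusted p up to 0.0739), and the Rbm3 call without HFD replicate 2 or A10-FMT replicate 1 or 2 (adjusted p up to 0.112). The glucocorticoid-responsive Zbtb16 fell by 0.78 (adjusted p = 0.00523) in HFD+AOS.

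Of 28 tested markers of liver cell types and blood, the single gene called in any comparison was Sox9, a cholangiocyte marker. It fell by 1.03 (adjusted p = 0.000887) in A10-FMT and by 0.87 (adjusted p = 0.00318) in HFD+AOS, each against HFD. The former was -1.14 with A10-FMT replicate 3 alone (adjusted p = 0.0502). Of the 4 cholangiocyte markers 2 were tested, and against HFD 1 was higher and Sox9 lower in both A10-FMT and HFD+AOS. Sox9 had a mean of 2.91 RPKM in HFD, 1.14 in HFD+AOS and 0.91 in A10-FMT. The summed RPKM of the 4 markers was 4.14 to 5.64 in HFD, 2.74 to 3.59 in HFD+AOS and 2.45 to 3.97 in A10-FMT. It was 2.34 to 4.53 in Con-FMT, 3.88 to 4.57 in Con and 3.17 to 4.49 in AOS. None of the 4 was at 0 in all livers of a group. The 3 adipocyte markers did not pass the filter and were not tested. Adipoq was 4.42, 0.39 and 0.0 RPKM in A10-FMT, Plin1 0.98, 0.11 and 0.0, and Cfd 22.05, 1.34 and 0.08, and both Adipoq and Plin1 were listed at 0 in every liver of Con, AOS and HFD. The sum of the 3 was 27.45, 1.84 and 0.08 in A10-FMT replicates 1 to 3, where Dbp was 126.90, 70.84 and 49.17 RPKM. Dbp was at most 0.59 RPKM in HFD. The part of adipocyte RNA in the Dbp values was not tested. The part of the cholangiocyte list in the results above was not tested.

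Another scaling of the libraries changed the split of calls over all genes. With each liver's median set equal, 603 genes rose and 467 fell in A10-FMT against HFD, beside 275 and 418 as deposited. In A10-FMT against Con-FMT 108 rose and 135 fell, beside 48 and 129. In HFD against Con 24 rose and 23 fell, beside 31 and 9, in AOS against Con 5 and 5, beside 10 and 4, and in the difference between diets 31 and 34, beside 15 and 38. None of the differences of the 10 genes moved by more than the spread between livers under this scaling, and 1 changed sign, Bhlhe41 in AOS against Con (0.02 to -0.05).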

How the data were processed

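The values are RPKM deposited by the authors as 1 table with 19057 rows and 18 livers, rounded to steps of 0.01. The study's methods name the unit, SOAPaligner and an Illumina HiSeq sequencer, and the submitters' processing notes name Bowtie 0.12.2 and mm10, and this difference could not be settled. RPKM keeps no read numbers, so the read-count test of the study was not run and depth is unknown. Groups were taken from the sample labels, and each liver counts as a replicate. Genes that reached an RPKM of 1 in 3 or more livers (10507) were fitted on log2(RPKM + 1) over all 18 livers with limma 3.58.1 (R 4.3.3; group means, moderated variance with a trend, two-sided, Benjamini-Hochberg), and called at an adjusted p under 0.05. The fit was tested on simulated data. The 10 genes and the other lists were chosen with earlier results of these data known. All clock genes measured are named, as are up to 3 called genes per other list and comparison with the smallest p and the 10 genes most like or opposite to the set. Alternatives were equal medians, a pseudocount of 0.1, no filter, a replicate block, the livers of the compared groups alone, leaving out Con and AOS replicates 3, and leaving out each liver, which makes 12 for a comparison of 3 with 3. Leaving out A10-FMT replicates 1 and 2 together was added after seeing the data. The replicate numbers carry no pairing in the labels. Promoter windows were taken from RefSeq (GRCm38.p6) and shared exons from GENCODE M21 on GRCm38.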

Additional observations from a re-analysis of the deposited data

Results flagged for a closer look

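The effect of AOS differed between the control treatment and the high-fat diet for 8 named genes outside the set, by limma's test of the difference itself with Benjamini-Hochberg adjustment over 10507 genes. The 8 genes come from lists chosen with earlier results of these data known, so their p-values are not independent of that choice. Hour of collection and treatment cannot be told apart here either. The difference was -2.70 for Arntl (adjusted p = 0.000698), with an AOS effect of 0.02 on the control treatment and -2.67 on the high-fat diet. It was -1.81 for Npas2 (adjusted p = 0.000698), -1.68 for Nfil3 (adjusted p = 0.00134) and -1.16 for Clock (adjusted p = 0.00905). Among rhythmic outputs it was 2.55 for Usp2 (adjusted p = 0.00134), 1.86 for Wee1 (adjusted p = 0.00136) and -2.74 for Cdkn1a (adjusted p = 0.00349). For the glucocorticoid-responsive Zbtb16 it was -1.50 (adjusted p = 0.00209), from 0.71 on the control treatment to -0.78 on the high-fat diet. Without the third Con and AOS livers, Clock was no longer called (adjusted p = 0.0966). The other 7 stayed called under each of 18 alternatives, with adjusted p without those livers of 0.0171 for Arntl, 0.021 for Npas2, 0.0231 for Nfil3 and Usp2, 0.0251 for Wee1, 0.0418 for Cdkn1a and 0.0316 for Zbtb16.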

How the results depend on the processing

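None of the reported genes past the threshold changed direction under the alternatives run. Among the fitted differences of the 10 genes, 16 of 920 changed sign over all alternatives. These were 10 gene and comparison pairs, none past the threshold, the largest being Nr1d1 in the difference between diets (0.42, and -0.30 without HFD replicate 3). Of 70 fitted differences of the 10 genes (10 genes in 7 comparisons), 70 stayed within the spread between livers under equal medians, no filter, the replicate block, the compared groups alone and without Con and AOS replicates 3, while 24 moved with a pseudocount of 0.1 and 14 of 480 moved when a liver was left out. Of 58 calls of named genes, 0 were lost under equal medians, 1 with a pseudocount of 0.1, 6 without the filter, 22 in the compared groups alone, 8 without Con and AOS replicates 3, and 48 of 396 with a liver left out.

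Counts of called genes moved by over 1.5 times as follows, and the cause was not tested. With equal medians, A10-FMT against HFD gave 1070 instead of 693. Without the filter, HFD against Con gave 26 instead of 40, Con-FMT against HFD 2 instead of 1 and A10-FMT against Con-FMT 100 instead of 177. A pseudocount of 0.1 gave 2 in Con-FMT against HFD. In the compared groups alone, which leaves fewer livers to estimate the spread, HFD against Con gave 2, A10-FMT against HFD gave 78, Con-FMT against HFD gave 2, A10-FMT against Con-FMT gave 4, AOS against Con gave 41 instead of 14, HFD+AOS against HFD gave 435 instead of 919 and the difference between diets gave 137 instead of 53. When Con and AOS replicates 3 were dropped, HFD against Con and AOS against Con gave 0 each by limma, where unadjusted p was under 0.05 for 1076 and 920 genes. A10-FMT gave 395 when compared with HFD and 82 when compared with Con-FMT, HFD+AOS against HFD gave 496 and the difference between diets 15.

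With each liver left out in turn, HFD against Con ran from 0 (Con replicate 1 or 3 out) to 178 (Con replicate 2 out). A10-FMT against HFD ran from 271 (A10-FMT replicate 2 out) to 1218 (A10-FMT replicate 3 out), and Con-FMT against HFD from 1 to 13 (HFD replicate 1 out). A10-FMT against Con-FMT ran from 51 (Con-FMT replicate 2 out) to 564 (A10-FMT replicate 3 out). AOS against Con ran from 0 (AOS replicate 3, Con replicate 1 or Con replicate 3 out) to 132 (Con replicate 2 out). HFD+AOS against HFD ran from 320 (HFD replicate 3 out) to 1282 (HFD replicate 1 out), and the difference between diets from 29 (Con replicate 3 out) to 186 (HFD replicate 1 out).

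Without A10-FMT replicates 1 and 2, an alternative chosen after seeing the data, A10-FMT against HFD gave 31 genes and A10-FMT against Con-FMT 10, 8 of 20 differences of the 10 genes moved and 19 of 29 calls of named genes were lost, in a group then of 1 liver.

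Samples with the same replicate number did not deviate together, with correlations between -0.177 and 0.225 and 0 of 6 comparisons with every pair over 0.1, so the numbers pair nothing. With the replicate block, HFD against Con gave 5 genes instead of 40 and Con-FMT against HFD 2 instead of 1, and 2 of 58 calls of named genes were lost. Rounding to 0.01 RPKM and the unknown depth limit the values of Bhlhe41 and of Ciart where they are low.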
